A study of Mus musculus with 30 samples.

Results

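Sox2, Sox21, Sox9, Sox4, Sox5 and Sox6 are 6 of the 25942 named genes in the expression tables of sorted mouse stomach cells. They were taken by symbol, as Sox transcription factors of the gastric epithelium, and followed in 30 RNA-seq libraries that form 10 sorted groups of 3. Tissue was the antrum, the distal stomach, or the corpus, its acid-secreting body. From the Sox2-Tomato line, in which a red fluorescent protein reports Sox2, came 3 antrum groups, Sox2-high, Sox2-low and Sox2-negative, and corpus Sox2-positive and Sox2-negative cells. From the Lgr5-DTR-GFP line, whose GFP and toxin receptor report the Wnt target Lgr5, came antrum Lgr5-positive and Lgr5-negative cells. The same line gave, from the corpus, Lgr5-positive cells with high EpCAM, Lgr5-positive cells with low EpCAM, and Lgr5-negative cells. All groups carry the genotype tag WT beside their reporter, and no group received a treatment that the labels name. A second label calls the corpus Sox2-positive gate low. Ages and the number of mice behind each sort are unstated in the labels, so p-values measure the spread between sorts.

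Sox proteins bind DNA through an HMG box, a domain that bends the minor groove, and they fall into lettered groups by the sequence of that box. Sox2 is a SoxB1 activator that helps set foregut and stomach identity in the embryo and marks self-renewing cells of the adult mouse stomach. Sox21 belongs to the SoxB2 group, whose members usually repress and can act on the same sites as SoxB1 factors. Sox9, of the SoxE group, responds to Wnt signals in the mouse intestinal crypt and directs cartilage formation. Sox4 is a SoxC factor that in the mouse intestine has been tied to the tuft and enteroendocrine lineages. Sox5 and Sox6 are SoxD factors, which lack an activation domain of their own and work with Sox9 on cartilage genes.

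Reads recovered from the deposited values came to between 31985198 and 62344916 in the EpCAM-low libraries and between 18672634 and 34437305 in the other 27. The 10 most abundant genes took 75.8 to 88.2% of the reads in the EpCAM-low libraries, against 6.47 to 46.7% in the other libraries. The Sox2-high sorts held 1630 to 3268 cells and the EpCAM-high sorts 2580 to 5230. Sox2, Sox21, Sox9, Sox4 and Sox5 had 10 or more reads in 30 of 30 libraries, and Sox6 in 14 of 30, with 8 libraries at 0 reads. In each of the 3 fits within a line and tissue that tested it, Sox6 reached the count minimum in the 3 libraries of its highest group and in 1 other. It was thus tested because of that group, and its differences there are descriptions. Sox6 was also tested in the differences between tissues. Epcam, the epithelial adhesion molecule, was read in every library (6737 to 40163 scaled reads), while Sox10, the glial member of the family, never passed 9 reads. In these bulk libraries, fewer cells of a type and less RNA per cell cannot be told apart.

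The stretches just upstream of 1 annotated start each were compared for 3 of the genes, Sox2, Sox21 and Sox5. Sox2 is the gene behind a sort gate and Sox21 is its SoxB2 counterpart. Sox5 was the only one of the 6 that passed the test between the Sox2-high and Sox2-low cells. Any other start of these 3 genes was not examined. RefSeq entries matched 5 of the 6 genes by symbol (Sox9 is named only), and each printed run is the 250 bases before the annotated start on build GRCm38.p6, which is not the mm9 build that the submitters name. Capitals mark the SOX core ATTGT or the TCF core CTTTGA, read on either strand. 
Sox2, chr3:34649745-34649994, + strand: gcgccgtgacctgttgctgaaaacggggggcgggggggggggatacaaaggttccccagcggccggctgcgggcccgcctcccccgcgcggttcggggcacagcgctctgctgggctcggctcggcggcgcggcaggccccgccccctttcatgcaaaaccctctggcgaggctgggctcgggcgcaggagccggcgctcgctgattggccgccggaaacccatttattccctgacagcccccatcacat
Sox21, chr14:118237031-118237280, − strand: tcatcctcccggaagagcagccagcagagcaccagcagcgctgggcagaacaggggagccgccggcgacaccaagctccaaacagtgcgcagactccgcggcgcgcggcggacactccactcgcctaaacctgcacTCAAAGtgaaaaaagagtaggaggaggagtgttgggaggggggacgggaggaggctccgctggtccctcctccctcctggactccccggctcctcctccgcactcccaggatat
Sox5, chr6:143947107-143947356, − strand: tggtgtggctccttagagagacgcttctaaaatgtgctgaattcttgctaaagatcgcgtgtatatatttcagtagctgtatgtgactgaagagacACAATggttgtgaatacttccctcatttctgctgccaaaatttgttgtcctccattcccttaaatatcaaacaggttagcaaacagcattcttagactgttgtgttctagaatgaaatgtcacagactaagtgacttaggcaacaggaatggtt
The Sox2 stretch was 72.0% G and C with 27 CpG dinucleotides, and the Sox21 stretch 65.2% with 17. The Sox5 stretch was 39.6% G and C with 3 CpG, below the medians of 52.4% and 6 CpG over 32851 such windows. A SOX core lay in the Sox5 stretch and in neither of the other stretches, and 27.7% of all windows held one. A TCF core lay in the Sox21 stretch, as in 13.8% of all windows. The Sox4 stretch, not printed, was 50.8% G and C with 11 CpG, and the 6 annotated starts of Sox6 ran from 34.0 to 60.8%. These letter matches describe the windows and are not binding sites.

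Levels across all groups were compared on reads scaled together over the 30 libraries, because the antrum and corpus tables were scaled separately. This scaling used TMM factors. The place of EpCAM-low cells in the orders below, and the ratios of highest to lowest group mean, depend on it. Per kilobase of exon, Sox9 was the most abundant of the 6, with a median of 1968 scaled reads over the 10 group means. Sox21 followed at 547 and Sox4 at 471, then Sox2 at 257. The SoxD genes were far lower on this scale, Sox5 at 11.8 and Sox6 at 0.413. Exons of an antisense gene overlap 713 bases of Sox21, 2616 bases of Sox4 and 1330 bases of Sox5 in a GENCODE annotation, none overlaps Sox9, and the use of strand in counting is not given, so such reads cannot be told apart. Sox2 lies inside Sox2ot, a noncoding transcript on the same strand, without a shared exonic base.

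**Figure D1:**
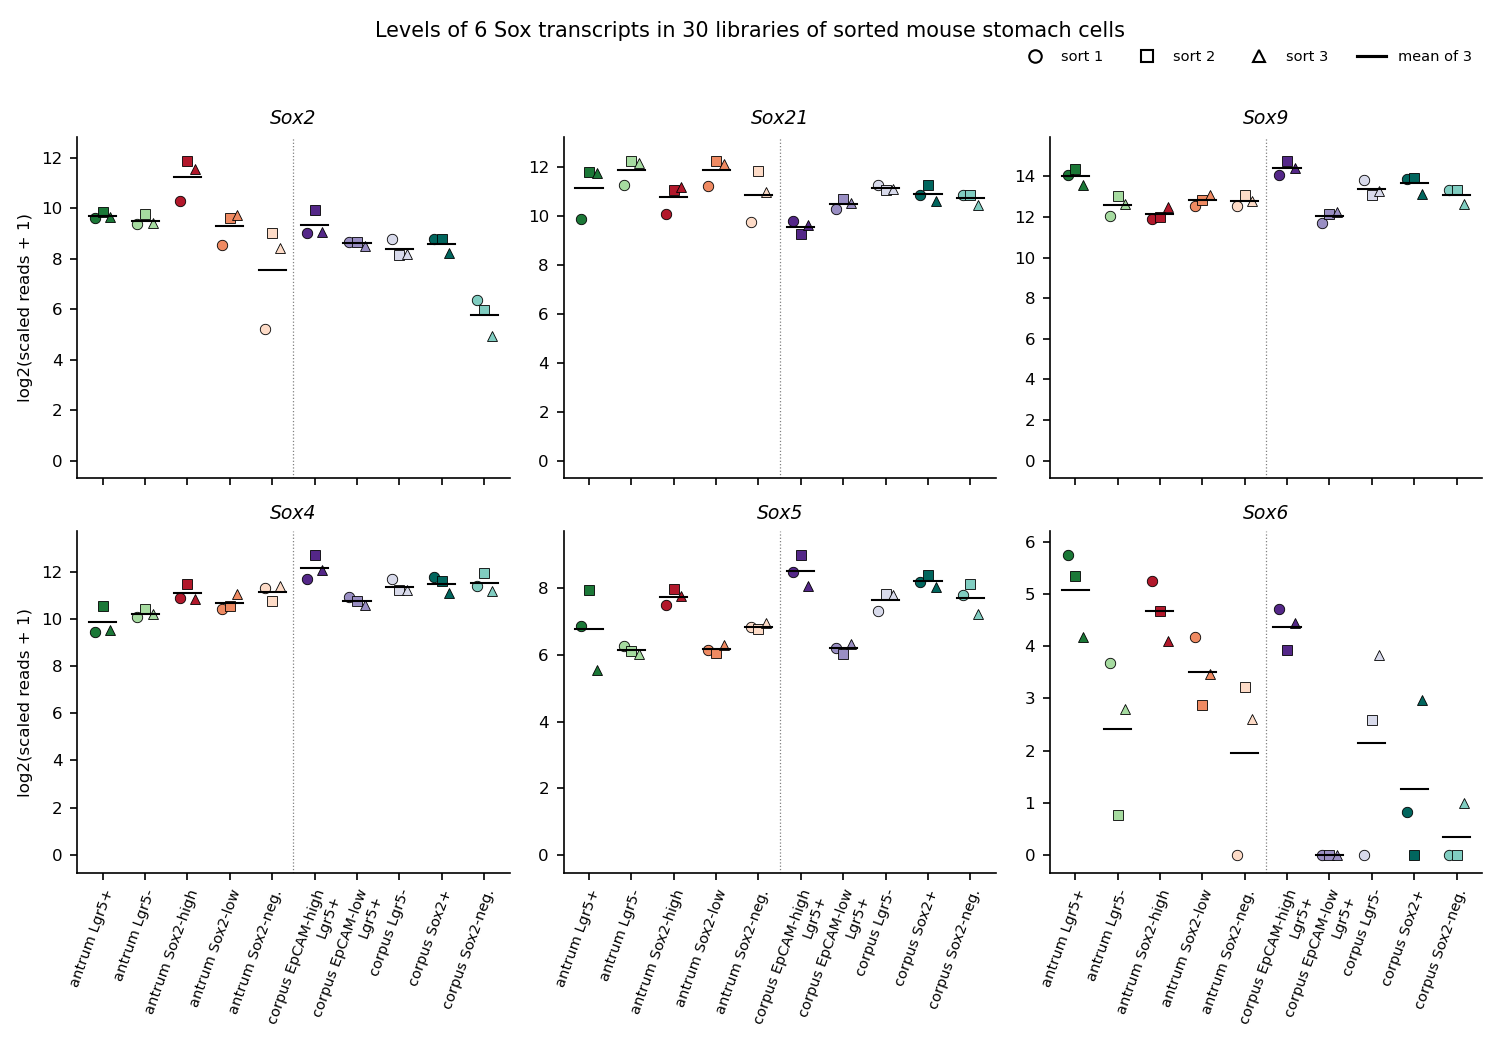
Levels of the 6 Sox genes in the 10 sorted groups, as log2(jointly scaled reads + 1), with a symbol for each library by sort number and a bar at the mean of the log2 values. Sox2 is highest in the Sox2-high group and lowest in the corpus Sox2-negative group, Sox21 is lowest in the EpCAM-high group, and Sox9, Sox4 and Sox5 are highest there.

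Among the genes read in every library, Sox2 had the largest ratio of highest to lowest group mean. Both end groups were gated on the Sox2 reporter, so the sort itself shaped that spread of Sox2. Its group means ran from 57.2 ± 25.6 scaled reads in corpus Sox2-negative cells to 2663 ± 1288 in antrum Sox2-high cells (SD, n = 3 each), a ratio of 46.5, while the same ratio was 5.23 for Sox21, 5.22 for Sox9, 4.83 for Sox4 and 5.43 for Sox5. Between those ends came antrum Lgr5-positive cells at 839.8, antrum Lgr5-negative cells at 733, EpCAM-high cells at 678, antrum Sox2-low cells at 664, and corpus Sox2-positive cells at 393. EpCAM-low cells followed at 388, corpus Lgr5-negative cells at 336 and antrum Sox2-negative cells at 296. Only the first step of this order, from Sox2-high to antrum Lgr5-positive cells, separated neighbours whose ranges did not overlap. In the Lgr5 line, whose gates did not use Sox2, Sox2 means ran from 336 to 839.8 and Sox9 means from 4245 to 22168. Sox6 has no such ratio because its lowest group mean was 0.

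Sox21 ran in another order, with antrum Lgr5-negative (3966) and Sox2-low cells (3908) at the top and EpCAM-high cells (758) at the bottom, the last being the only neighbours without overlap. In between lay antrum Lgr5-positive cells at 2630.1, corpus Lgr5-negative cells at 2287, antrum Sox2-negative cells at 2182.2, corpus Sox2-positive cells at 1970.1, Sox2-high cells at 1838, corpus Sox2-negative cells at 1710.2 and EpCAM-low cells at 1451. Sort 1 had the lowest Sox21 of its group in each of the 5 antrum groups. Within groups, Sox2 and Sox21 varied together over the 30 libraries (Pearson r = 0.680), and over all libraries r was 0.250; the libraries share sort days and reagents, and the values are descriptions.

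EpCAM-high cells had the highest group means of Sox9, Sox4 and Sox5. Sox9 stood at 22168 ± 5253 scaled reads there and at 16804 ± 4431 in antrum Lgr5-positive cells, then at 13281 in corpus Sox2-positive, 10871 in corpus Lgr5-negative and 9003 in corpus Sox2-negative cells. The remaining 5 groups lay between 4245 (EpCAM-low) and 7273 (antrum Sox2-low), and every neighbour in the order overlapped. Sox4 ran from 982 in antrum Lgr5-positive and 1203 in antrum Lgr5-negative cells up to 4737 ± 1718 in EpCAM-high cells, and the only neighbours apart were antrum Sox2-low (1658) and Lgr5-negative cells. Sox5 ran from 69.8 in antrum Lgr5-negative cells to 379 ± 123 in EpCAM-high cells, with corpus Sox2-positive cells next at 298. Sox6 had its highest group mean, 36.5 ± 18.1, in antrum Lgr5-positive cells, followed by Sox2-high cells at 26.0 and EpCAM-high cells at 20.1, and no neighbours lay apart. Among pairs of the 6 genes over 30 libraries, Sox4 and Sox5 had the highest r (0.764, and 0.573 within groups) and Sox21 and Sox5 the lowest (−0.477, and 0.0110 within groups).

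The antrum Sox2 sorts ask which other Sox genes accompany high Sox2. Sox5 was higher in Sox2-high than in Sox2-low cells, and it was the only 1 of the 6 genes to pass the test, where 7.90% of 15064 genes passed. Sox12, a SoxC gene, also rose. Sox2ot was higher too, but it was tested because of the Sox2-high libraries. Values in the sorted comparisons below are normalised counts, that is read counts divided by the authors' size factor of each library, tested with limma on log2(normalised count + 1) at a Benjamini-Hochberg adjusted p of 0.05.

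Sox5 had 197, 245 and 207 normalised counts in the Sox2-high sorts 1, 2 and 3, against 71.4, 56.6 and 64.4 in the Sox2-low sorts. All 3 Sox2-high libraries lay above all 3 Sox2-low libraries. The log2 fold change was 1.74 (SE 0.31, limma adjusted p = 0.0124), and p ran from 0.0043 to 0.0722 over the alternatives tried. The call was lost without Sox2-low sort 2 (0.0663) or 3 (0.0540) or Sox2-high sort 2 (0.0722) or 3 (0.0530).

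Sox2 itself, whose reporter set the gate, checks the labels. It had 1355, 3628 and 2849 normalised counts in the Sox2-high sorts, against 374, 662 and 709 in the Sox2-low sorts. The groups did not overlap and each Sox2-high library exceeded the Sox2-low library of its own day, but sort 1 was low in both. A log2 fold change of 2.10 (SE 0.83) had a limma adjusted p of 0.169, and of 0.0124 with the sort day as a block, within a range of 0.0124 to 0.379 over the alternatives.

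Sox21 and Sox9 were lower on each sort day. Sox21 had 1173, 2064 and 2193 normalised counts in Sox2-high cells, against 2431, 4167 and 3719 in Sox2-low cells. Sox9 had 4116, 4018 and 5534 in Sox2-high cells, against 6112, 6198 and 7129.9 in Sox2-low cells. Neither pair of ranges overlapped, the log2 fold changes were −0.94 (SE 0.47) and −0.52 (SE 0.23), and the limma adjusted p-values were 0.275 and 0.219. With the sort day as a block they were 0.0132 for Sox21, within 0.0132 to 0.556 over its alternatives, and 0.0283 for Sox9, within 0.0283 to 0.492. The block brought the genes called to 4 of the 6, beside 30.4% of all genes, and 4 of the 6 had ranges that did not overlap, beside 30.6%. Both counts include Sox2, the gated gene, with Sox5, Sox21 and Sox9.

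Sox4, with 2093, 2780.3 and 1738 normalised counts in Sox2-high cells against 1375, 1286 and 1764 in Sox2-low cells, overlapped between the groups (log2 fold change 0.57, SE 0.30, limma adjusted p = 0.307). Sox6 averaged 26.6 ± 12.7 in Sox2-high and 10.4 ± 6.23 in Sox2-low cells (SD, n = 3; 1.32, SE 0.91, adjusted p = 0.446). Neither passed, and the ranges of both overlapped. Sox6 was higher in Sox2-high cells on each sort day, though it was tested because of that group, and Sox4 was not higher on sort 3.

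Markers of other cell types moved with these values. Of 18 enteroendocrine genes, 10 rose and 2 fell in Sox2-high against Sox2-low cells, with summed scaled reads of 2547260 to 3650100 against 416928 to 747281. The largest change was that of Tph1, the enzyme that starts serotonin synthesis (log2 fold change 9.06, limma adjusted p = 0.00219). Nkx6-1, an endocrine transcription factor, averaged 6864 ± 1335 normalised counts in Sox2-high and 28.5 ± 13.4 in Sox2-low cells (log2 fold change 7.96, limma adjusted p = 9.45e-05). The hormone gene Sst went the other way and was lower on each sort day. It had 37091, 10081 and 19309 normalised counts in Sox2-high cells, against 188152, 90688 and 70864 in Sox2-low cells. Of 17 tuft cell genes, 10 fell (16 with the block), with sums of 2999 to 10371 against 23052 to 59228, and Chat was at 0 reads in all 3 Sox2-high libraries. Of 18 cell cycle genes, 6 fell (16 with the block). Of 16 tested foregut and endoderm factors, Foxa2 rose (1.31, limma adjusted p = 0.0151), Klf4 fell by 1.42 (adjusted p = 0.0313) and Foxq1 fell by 1.13 (adjusted p = 0.0405) on the log2 scale. Glia and neuron genes summed to 1828 to 3126 scaled reads in Sox2-high cells, against 384 to 647 in Sox2-low cells, and 4 of 6 tested rose. Fibroblast and smooth muscle genes summed to 165 to 389 against 9.51 to 18.1. The part of these cells in the Sox values was not tested.

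Against Sox2-negative cells, none of the 6 genes passed in Sox2-high cells by limma or edgeR, where 2.15% of genes passed by limma and 1.39% by edgeR. At an unadjusted limma p under 0.05, 4 of the 6 passed, as did 12.3% of genes. These 4 were the gated gene Sox2, Sox6, which was tested because of the Sox2-high libraries, Sox5 and Sox9. Sox2 had 1355, 3628 and 2849 normalised counts in Sox2-high cells, against 36.6, 442 and 304 in Sox2-negative cells. Sort 1 of the Sox2-negative group was far below the other sorts, yet the groups were clearly apart. The log2 fold change of 3.81 (SE 0.83) had a limma adjusted p of 0.0538, which was 0.00316 with the sort-day block (where 1 of the 6, Sox2, passed beside 9.71% of genes), 0.0374 with a pseudocount of 10 and 0.0388 without Sox2-negative sort 1, in a range of 0.00316 to 0.205. Sox5 had 197, 245 and 207 in Sox2-high cells against 115, 93.2 and 111 in Sox2-negative cells, and the ranges did not overlap (1.02, SE 0.31, adjusted p = 0.159). Sox6 and Sox9 also lay apart, higher and lower (limma adjusted p = 0.188 and 0.381), so that 4 of the 6 lay apart beside 15.6% of genes. Of these 4, Sox2 set the gate and Sox6 was tested because of the Sox2-high libraries, which leaves Sox5 and Sox9. Sox21 (0.03, SE 0.47) and Sox4 (0.05, SE 0.30) overlapped.

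Between Sox2-low and Sox2-negative cells, 0 of 15064 genes passed by limma or edgeR, with or without the block, while 6.41% and 1 of the 6 Sox genes had an unadjusted limma p under 0.05. That gene was Sox5, with 71.4, 56.6 and 64.4 normalised counts in Sox2-low cells against 115, 93.2 and 111 in Sox2-negative cells, every Sox2-low library being lower (−0.72, SE 0.31, limma adjusted p = 0.743); 14.1% of genes lay apart in this comparison. Sox2 averaged 582 ± 181 in Sox2-low and 261 ± 206 in Sox2-negative cells (SD, n = 3; 1.71, SE 0.83, adjusted p = 0.836), and the 374 of Sox2-low sort 1 lay below the 442 of Sox2-negative sort 2, although Sox2 was higher in Sox2-low cells on each of the 3 days. Sox21 averaged 3439 ± 902 in Sox2-low and 1945 ± 1131 in Sox2-negative cells, again overlapping but higher on each of the 3 days (0.97, SE 0.47, adjusted p = 0.828). With the sort-day block the limma adjusted p was 0.189 for Sox2 and 0.164 for Sox21. The Sox2-high comparisons use the same libraries as this one, so the values are not independent. Immune genes summed to 271 to 370 scaled reads in Sox2-low, 173 to 291 in Sox2-high and 1349.9 to 14091 in Sox2-negative cells, and their part in the values was not tested.

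**Figure D2:**
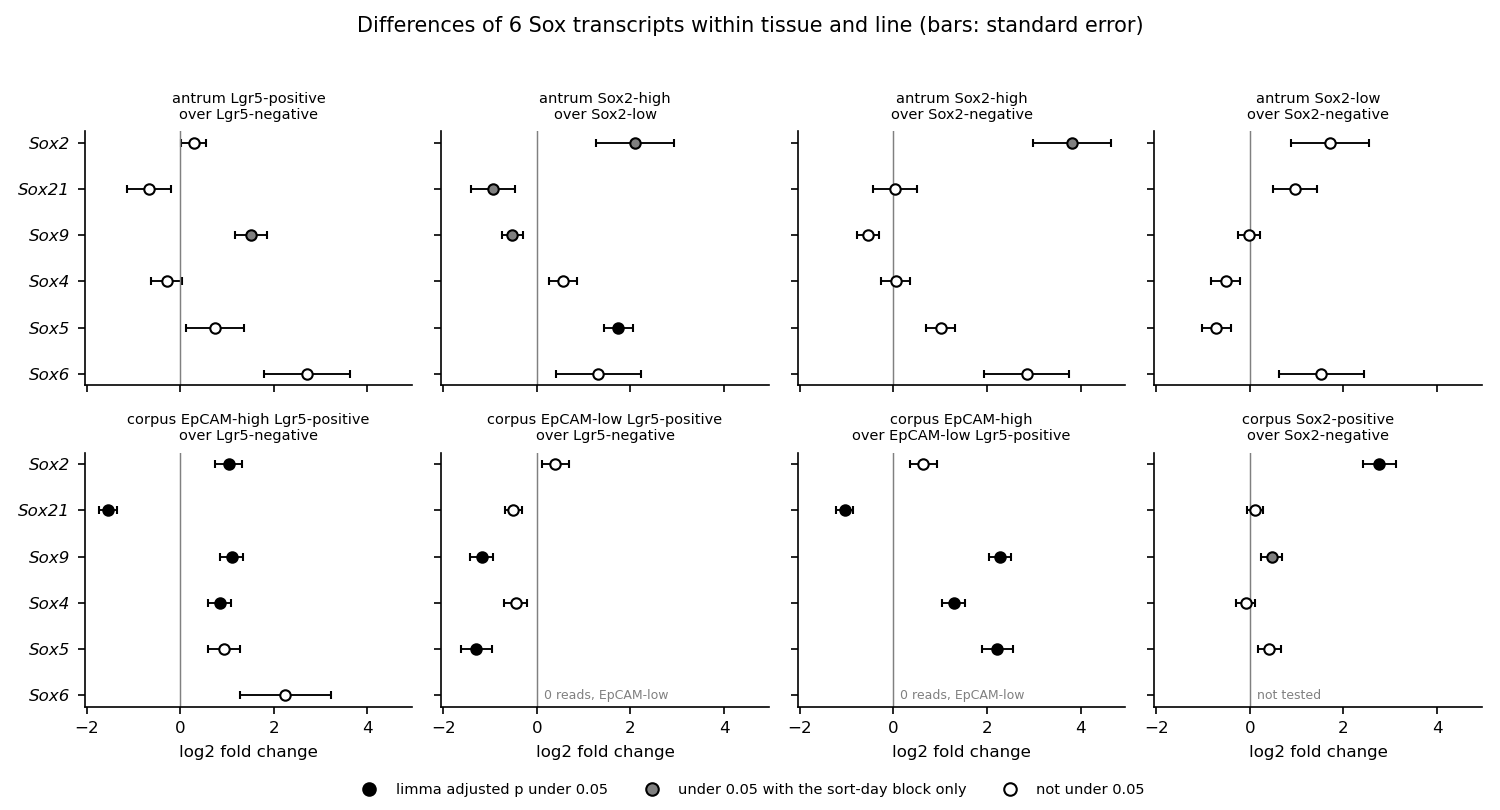
Log2 fold changes of the 6 Sox genes in 8 comparisons, the first-named group over the second, with bars of 1 standard error; black points passed limma at an adjusted p of 0.05, grey points passed with the sort day as a block, and white points passed neither. Sox21 lies below 0 and Sox9, Sox4 and Sox5 lie above 0 for EpCAM-high cells, and Sox9 lies below 0 for EpCAM-low against Lgr5-negative cells.

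In the corpus, Sox2-positive cells had more Sox2 than Sox2-negative cells, and the gate is again the gene itself. Sox2 had 372, 383 and 269 normalised counts in Sox2-positive cells, against 72.6, 56.6 and 28.2 in Sox2-negative cells. The groups were widely apart, with a log2 fold change of 2.76 (SE 0.35, limma adjusted p = 0.00121). It was the only 1 of 5 Sox genes tested that passed, beside 9.73% of genes, so none passed besides the gated gene. Sox6 did not reach the count minimum, with 0.658, 0 and 6.16 in Sox2-positive and 0, 0 and 0.939 in Sox2-negative cells.

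Sox9 was the other gene to move with the corpus Sox2 gate, once days were compared within themselves. It had 12832, 13475 and 8240.1 normalised counts in Sox2-positive cells, against 9201, 9601 and 6067 in Sox2-negative cells, so the ranges overlapped but each day was higher by a like amount. The log2 fold change was 0.47 (SE 0.23), with a limma adjusted p of 0.304 without and 0.000961 with the sort-day block, in a range of 0.000961 to 0.657. With the block, 2 of 5 Sox genes passed beside 16.4% of genes, Sox9 and the gated gene Sox2. Sox5 (0.42, SE 0.25, adjusted p = 0.439), Sox21 (0.11, SE 0.17, adjusted p = 0.833) and Sox4 (−0.09, SE 0.21, adjusted p = 0.903) overlapped between Sox2-positive and Sox2-negative cells, so 1 of the 5, Sox2, lay apart beside 24.4% of genes.

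The other markers moved unlike those of the antrum. Of 17 tuft genes, 15 rose in corpus Sox2-positive cells (sums of 59105 to 118600 scaled reads, against 27836 to 44418 in Sox2-negative cells). Of 15 enteroendocrine genes tested, 8 fell and 1 rose (76225 to 94520 against 546773 to 1188200), with Nkx6-1 at 0 reads in both groups. Immune genes summed to 959 to 1252 in Sox2-positive and 1517 to 13663 in Sox2-negative cells. Of 16 Wnt and stem cell genes tested, 3 rose (7 with the block): Lgr5 (2.47, limma adjusted p = 0.000298), Nkd1, a Wnt feedback inhibitor (2.20, adjusted p = 0.0007), and Tnfrsf19 (1.41, adjusted p = 0.0250). Of 15 foregut factors, Spdef (0.72, adjusted p = 0.0171) and Klf5 (0.57, adjusted p = 0.0279) rose. Their part in the Sox values was not tested.

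For the antrum Lgr5 sorts, the question is which Sox genes mark Lgr5-positive cells. Without the sort-day block, 0 of 14047 genes passed by limma or edgeR, and with it 446 passed by limma. An unadjusted limma p under 0.05, without the block, was found for 7.24% of genes and 2 of the 6 Sox genes. These were Sox9 and Sox6, and they were also the genes whose groups lay apart, both higher, beside 14.6% of genes apart in either direction. Sox6 was tested because of its Lgr5-positive libraries, so without it Sox9 alone remains in both counts.

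Sox9 had 19188, 18052 and 10950.2 normalised counts in antrum Lgr5-positive cells, against 4244, 7126 and 5443 in Lgr5-negative cells. Even the lowest Lgr5-positive library, sort 3, exceeded the highest Lgr5-negative one. Its log2 fold change of 1.51 (SE 0.35) had a limma adjusted p of 0.247, and of 0.0262 with the sort-day block, in a range of 0.0243 to 0.806. It was the only 1 of the 6 called with the block, beside 3.18% of genes.

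Sox6 had 58.8, 34.0 and 15.3 normalised counts in Lgr5-positive cells, against 11.7, 0.607 and 5.02 in Lgr5-negative cells, and lay apart at very low levels (2.71, SE 0.92, limma adjusted p = 0.537). Sox21 had 1052, 3021 and 3083 in Lgr5-positive cells against 2461, 4205 and 3815 in Lgr5-negative cells. It was lower in Lgr5-positive cells on each of the 3 days, though the ranges overlapped (−0.67, SE 0.48, adjusted p = 0.876). Sox2 did not pass, with 874, 800.4 and 722 in Lgr5-positive cells against 651, 745 and 569 in Lgr5-negative cells (0.29, SE 0.27, adjusted p = 0.918). Sox5 was scattered in Lgr5-positive cells (129.8, 212 and 41.2, against 74.7, 59.5 and 54.6 in Lgr5-negative cells), and Sox4 averaged 913 ± 335 in Lgr5-positive and 1074 ± 85.8 in Lgr5-negative cells (SD, n = 3). Neither passed (limma adjusted p = 0.911 and 0.939).

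Of 17 Wnt and stem cell genes tested in the antrum Lgr5 sorts, 0 passed by limma and 8 rose with the block, and 0 of 12 parietal, 6 chief and 6 mucous neck cell genes passed by limma while 9, 4 and 6 rose with the block. Col9a3, a collagen chain of cartilage, averaged 1258 ± 226 normalised counts in Lgr5-positive and 397 ± 165 in Lgr5-negative cells (SD, n = 3; 1.74, limma adjusted p = 0.225). Col9a3 was named after its values were seen. Of the 3 cartilage genes tested, 0 passed, and 2 with the block. Chief cell genes, of the enzyme-secreting gland cells, summed to 2594440 to 6752720 scaled reads in Lgr5-positive cells, against 185701 to 419719 in Lgr5-negative cells. Mucous neck cell genes summed to 868918 to 4044960 in Lgr5-positive cells, against 219942 to 359533 in Lgr5-negative cells, and parietal cell genes to 242983 to 266235 against 102005 to 127119. The part of these cells in the Sox values was not tested.

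In corpus EpCAM-high Lgr5-positive cells against Lgr5-negative cells, Sox2, Sox9 and Sox4 rose and Sox21 fell, which is 4 of the 6 genes where 21.1% of 14847 genes passed. Groups lay apart for all 6 of them, 5 higher and 1 lower, beside 48.2% of genes. Sox6, among the 5, was tested because of the EpCAM-high libraries. On RPM values without TMM factors 2 of the 6 passed, beside 18.1% of genes, and leaving out 1 library gave 1 to 4.

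Sox21 had 859, 587 and 781 normalised counts in EpCAM-high cells, against 2304, 2028 and 2089 in Lgr5-negative cells. The Lgr5-negative libraries lay close together and far above the EpCAM-high ones. The log2 fold change was −1.54 (SE 0.19, limma adjusted p = 0.000909), and this call held over the alternatives tried, with p from 0.000448 to 0.00704.

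Sox2 had 511, 955 and 520.0 normalised counts in EpCAM-high cells, against 400.5, 269 and 272 in Lgr5-negative cells. The groups were apart by a narrow margin between EpCAM-high sort 1 and Lgr5-negative sort 1. The log2 fold change was 1.03 (SE 0.29, limma adjusted p = 0.0320), with p from 0.0269 to 0.123 over the alternatives. Without Lgr5-negative sort 2 or 3 or EpCAM-high sort 2, Sox2 did not pass (0.123, 0.116 and 0.101).

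Sox9 had 16919, 26820.0 and 21265 normalised counts in EpCAM-high cells, against 13169, 8059 and 9243 in Lgr5-negative cells. All EpCAM-high libraries were higher (1.10, SE 0.24, limma adjusted p = 0.0121), and the call was lost without Lgr5-negative sort 2 (0.0615) or 3 (0.0537), in a range of 0.00815 to 0.0615. Sox4 had 3235, 6427 and 4218 in EpCAM-high cells, against 3027, 2234 and 2254 in Lgr5-negative cells. Here too the EpCAM-high libraries were higher, sort 1 only just (0.84, SE 0.25, adjusted p = 0.0384). The Sox4 p ran from 0.0157 to 0.137 over the alternatives and passed 0.05 without Lgr5-negative sort 1 (0.0545), 2 (0.137) or 3 (0.129) or EpCAM-high sort 2 (0.112) or 3 (0.0776).

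Sox5 had 354, 493 and 262 normalised counts in EpCAM-high cells, against 147, 213 and 209.8 in Lgr5-negative cells. The ranges lay apart and the log2 fold change was 0.93 (SE 0.33, limma adjusted p = 0.0778). Sox6 had 24.7, 13.7 and 20.7 in EpCAM-high cells, against 0, 4.68 and 12.5 in Lgr5-negative cells (2.25, SE 0.98, adjusted p = 0.135).

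EpCAM-low Lgr5-positive cells stood on the other side of Lgr5-negative cells for Sox9 and Sox5, which fell, the 2 of 6 genes called where 30.9% of genes passed (1 to 3 leaving out 1 library, and 5 beside 82.2% of genes on RPM values without TMM factors). Sox9 had 3532, 4722 and 5069 normalised counts in EpCAM-low cells, against 13169, 8059 and 9243 in Lgr5-negative cells (−1.18, SE 0.24, limma adjusted p = 0.00648). Sox5 had 77.8, 66.6 and 84.3 in EpCAM-low cells, against 147, 213 and 209.8 in Lgr5-negative cells (−1.29, SE 0.33, adjusted p = 0.0173). In both cases each EpCAM-low library was lower than all Lgr5-negative libraries. The Sox5 call was lost without Lgr5-negative sort 2 (0.0755) or 3 (0.0721), in a range of 3.88e-05 to 0.0755.

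Sox21 had 1305, 1695 and 1552 normalised counts in EpCAM-low cells and Sox4 had 2052, 1800.4 and 1627, against 2304, 2028 and 2089 for Sox21 and 3027, 2234 and 2254 for Sox4 in Lgr5-negative cells. Both lay apart and lower without passing (−0.50, SE 0.19, limma adjusted p = 0.0660 for Sox21, and −0.45, SE 0.25, adjusted p = 0.194 for Sox4), so 4 of 6 lay apart beside 49.8% of genes. Sox2 was 428, 413 and 378 in EpCAM-low cells, against 400.5, 269 and 272 in Lgr5-negative cells (0.39, SE 0.29, adjusted p = 0.324). On RPM values without TMM factors, where the median gene was at −2.04, Sox2 was at −1.59. Sox6 had 0 reads in all 3 EpCAM-low libraries, against 0, 4.68 and 12.5 normalised counts in Lgr5-negative cells, and passed only without Lgr5-negative sort 1, its library at 0 (adjusted p = 0.0421, in a range of 0.0421 to 0.443).

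Set directly against EpCAM-low cells, EpCAM-high cells had more Sox9, Sox5, Sox4 and Sox6 and less Sox21, which is 5 of the 6, or 4 of 5 without Sox6, where 31.8% of genes passed. Sox9 averaged 21668 ± 4963 normalised counts in EpCAM-high and 4441 ± 806 in EpCAM-low cells (SD, n = 3 each; log2 fold change 2.28, SE 0.24, limma adjusted p = 0.00018). Sox5 averaged 369.7 ± 116 against 76.2 ± 8.99 (2.22, SE 0.33, adjusted p = 0.00108), and Sox4 4627 ± 1635 against 1826 ± 214 (1.29, SE 0.25, adjusted p = 0.00398). Sox6, at 24.7, 13.7 and 20.7 in EpCAM-high cells, was at least 2.30-fold higher. This takes 3 reads per library as the most that 0 allows in EpCAM-low cells, a limit of counting error only. Sox6 was tested because of the EpCAM-high libraries, so its limma adjusted p of 0.00882 is a description. Its p was 0.0597 by edgeR with the block, in a range of 0.000764 to 0.0597.

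Sox21 averaged 742 ± 140.4 normalised counts in EpCAM-high and 1517 ± 198 in EpCAM-low cells (SD, n = 3; −1.04, SE 0.19, limma adjusted p = 0.00269). The direction of Sox21 turned with the scaling. On RPM values without TMM factors it was at 0.98 (adjusted p = 0.00811, in a range of 0.0023 to 0.0103), where the median of all genes stood at 1.94, so relative to that median it was still lower. Sox2 averaged 662 ± 254 in EpCAM-high and 406 ± 25.7 in EpCAM-low cells (0.64, SE 0.29, adjusted p = 0.119). All 6 genes lay apart here, beside 41.4% of genes, with Sox6 among them tested because of the EpCAM-high libraries. The 3 corpus comparisons share their groups, so their values are not independent.

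Markers of differentiated cells separated these corpus groups. All 17 tuft genes rose in EpCAM-high cells against Lgr5-negative cells and against EpCAM-low cells, with sums of 322911 to 583074 scaled reads in EpCAM-high, 3535 to 18742 in EpCAM-low and 28025 to 54187 in Lgr5-negative cells. Trpm5, the tuft cell taste channel, averaged 84186 ± 29784 normalised counts in EpCAM-high and 4330 ± 1244 in Lgr5-negative cells. Of 12 parietal genes, 9 rose in EpCAM-low against Lgr5-negative cells (sums of 2542020 to 3278290 scaled reads, against 301815 to 366862), and 1 rose and 1 fell in EpCAM-high cells (249034 to 932140). Of 6 chief cell genes tested, 5 rose and 1 fell in EpCAM-low against Lgr5-negative cells, with sums of 63251700 to 144850000 scaled reads in EpCAM-low, against 10835700 to 14990400 in Lgr5-negative cells and 7973010 to 12018300 in EpCAM-high cells. Of 9 general epithelial genes, 6 fell in EpCAM-low against Lgr5-negative cells (119981 to 128934 against 296299 to 337119), while 6 rose and 2 fell in EpCAM-high cells (391187 to 485392). Mucous neck cell genes summed to 27192.8 to 41817.9 in EpCAM-high and 9125.71 to 22431.8 in EpCAM-low cells, against 108258 to 164215 in Lgr5-negative cells. Endothelial genes summed to 2069 to 3708 in EpCAM-high and 350 to 442 in EpCAM-low cells, against 227 to 341 in Lgr5-negative cells, and 2 of 3 tested rose in EpCAM-high cells. Immune genes summed to 1593 to 4173 in EpCAM-high and 44.5 to 287 in EpCAM-low cells, against 522 to 706 in Lgr5-negative cells. None of the 6 immune genes tested passed by limma in EpCAM-high against Lgr5-negative cells, and their median log2 fold change was −1.29, opposite in sign to the sum. Of 18 cell cycle genes, 15 fell in EpCAM-high and 18 in EpCAM-low against Lgr5-negative cells. Of 15 enteroendocrine genes tested, 9 fell in EpCAM-high cells (9263 to 41090 against 266985 to 462041), with Neurog3, Pax6, Pax4 and Nkx6-1 at 0 reads there. The part of these cells in the Sox values was not tested.

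Genes tied to the Sox factors moved unevenly. Of 17 Wnt and stem cell genes, 6 rose and 1 fell in EpCAM-high against Lgr5-negative cells, among them Lgr5 (5.57, limma adjusted p = 0.000161), the Wnt feedback inhibitor Nkd1 (4.74, adjusted p = 0.000161), Ascl2, a crypt stem cell factor (3.83, limma adjusted p = 0.000161), and Myc, which fell by 2.35 (adjusted p = 0.0018). Of 6 cartilage genes tested, Col9a3 rose, with 3587 ± 1095 normalised counts in EpCAM-high and 400.1 ± 109.6 in Lgr5-negative cells (3.15, limma adjusted p = 0.00632). Col11a1 and Hapln1 were at 0 reads in EpCAM-high cells, against 228 ± 74.8 and 37.7 ± 15.8, and fell. Hapln1 was at 0 reads in EpCAM-low cells too. It was tested only through the Lgr5-negative libraries, so its fall is a description. Of 16 foregut factors, 6 fell and 1 rose, the last being the intestinal factor Cdx1 (109.9 ± 59.1 in EpCAM-high, 0.510 ± 0.882 in Lgr5-negative cells, adjusted p = 0.00119, tested only through the EpCAM-high libraries). In corpus Sox2-positive against Sox2-negative cells, Col9a3 also rose (1014 ± 344 against 378 ± 107, 1.41, adjusted p = 0.00842), and Col11a1 and Hapln1 fell.

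Whether the Lgr5 gate went with the same Sox change in antrum and corpus was tested as a difference of log2 fold changes over the 15 libraries of the line. The corpus Lgr5-positive groups were also gated on EpCAM, so their effects are not those of Lgr5 alone. For Sox9, the antrum effect minus the EpCAM-low effect was 2.72 (SE 0.43, limma adjusted p = 0.0043), with p from 0.00284 to 0.0175 over the alternatives, and it was 1 of the 6 called beside 4.06% of 15386 genes. Sox9 was at 1.51 in antrum Lgr5-positive cells and at −1.18 in EpCAM-low cells, each over its Lgr5-negative cells. Sox6 was at 4.55 (SE 1.26, adjusted p = 0.0593, and 0.0424 with the block, where 10.3% of all genes passed, in a range of 0.0345 to 0.163). With EpCAM-low libraries at 0 reads, the size for Sox6 depends on the count added before the logarithm and was 1.88 with a pseudocount of 10. Sox5, at 2.06 (SE 0.70, adjusted p = 0.122), passed without antrum Lgr5-positive sort 3 (2.70, adjusted p = 0.0207, in a range of 0.0207 to 0.245).

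Against the EpCAM-high effect, the antrum effect differed for 0 of the 6 genes by limma or edgeR, beside 4.09% of genes by limma and 3.95% by edgeR, and 1 of the 6 had an unadjusted limma p under 0.05, as did 16.5% of all genes. That was Sox4, at −1.22 (SE 0.44, limma adjusted p = 0.152). Sox2 was at −0.83 (SE 0.40, adjusted p = 0.318), Sox21 at 0.79 (SE 0.59, adjusted p = 0.602) and Sox9 at 0.32 (SE 0.43, adjusted p = 0.831). Sox21 passed without antrum Lgr5-positive sort 1, the library with the lowest Sox21 of its group (1.40, adjusted p = 0.0468, in a range of 0.0468 to 0.751). For the Sox2 gate, antrum Sox2-low minus corpus Sox2-positive differed for 0 of the 6 genes by limma or edgeR, where 6 of 16564 genes passed limma (0.0362%) and 4 passed edgeR (0.0241%), and 1 of the 6, Sox5, had an unadjusted limma p under 0.05 (−1.10, SE 0.38, adjusted p = 0.566), beside 5.61% of all genes.

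Sox2 reads per Sox21 read, a ratio within each library that no scaling changes, separated the sorted cells in another way. It was 1.15 to 1.76 over the 3 Sox2-high libraries, against 0.154 to 0.191 in Sox2-low and 0.0419 to 0.165 in antrum Sox2-negative libraries. EpCAM-high libraries had 0.594 to 1.63, EpCAM-low libraries 0.243 to 0.328 and corpus Lgr5-negative libraries 0.130 to 0.174. Antrum Lgr5-positive libraries spread from 0.234 to 0.830, overlapping the 0.149 to 0.265 of Lgr5-negative libraries. Corpus Sox2-positive libraries had 0.1796 to 0.234, and corpus Sox2-negative libraries 0.0215 to 0.0432. Sox2 set the Sox2 gates, so its share of the ratio in those groups is no result, and a ratio within a library shows unequal levels, not which gene differs.

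**Figure D3:**
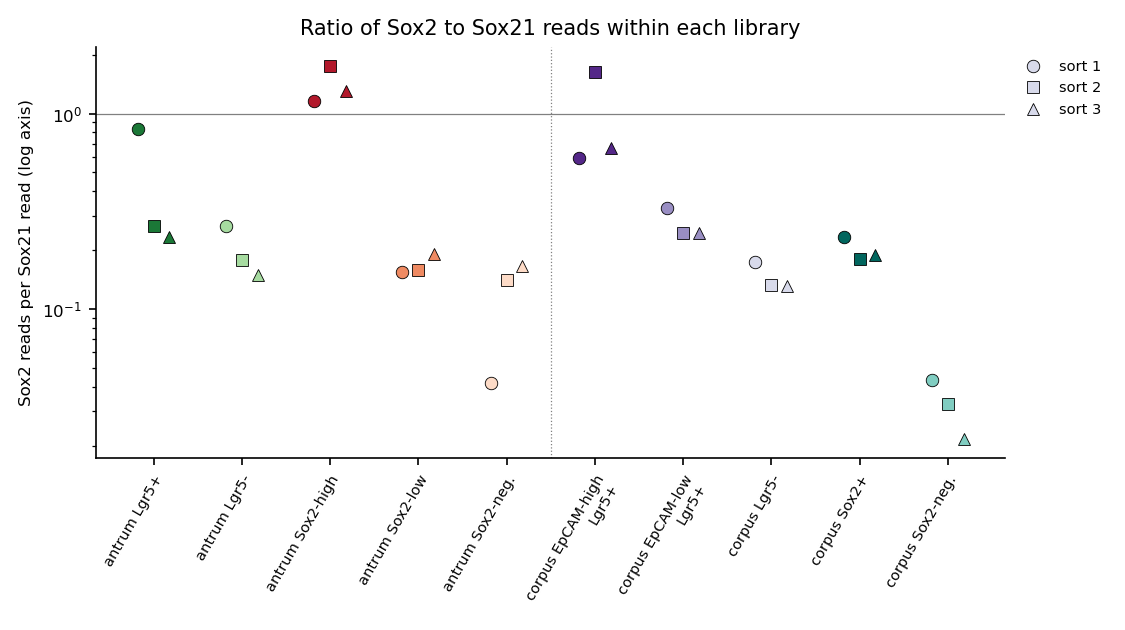
Sox2 reads per Sox21 read in each of the 30 libraries by sorted group, on a log axis. The Sox2-high libraries sit between 1.15 and 1.76 and the corpus Sox2-negative libraries between 0.0215 and 0.0432.

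Of the 20 Sox genes listed, 16 were found in the tables, and 10 of the 16 had 10 or more reads in at least 3 libraries. Beyond the 6 genes above, those with enough reads were Sox8, Sox11, Sox12 and Sox13. Sox11, a SoxC gene of immature neurons and other progenitors, had 139, 192 and 164 normalised counts in EpCAM-high cells, against 0, 0 and 0 in EpCAM-low cells and 0, 1.17 and 0 in corpus Lgr5-negative cells. Sox8, a SoxE gene related to Sox9, had 86.9, 159 and 75.3 in EpCAM-high cells, against 0, 3.50 and 0 in EpCAM-low and 0, 0 and 3.40 in Lgr5-negative cells. Both genes reached the count minimum in this fit only in the 3 EpCAM-high libraries and were tested because of them, so no adjusted p is given for their corpus differences.

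From 433 reads in EpCAM-high and 1 in Lgr5-negative cells, Sox11 was 394-fold higher (95% interval 70.3 to 15591, counting error only), and against EpCAM-low cells it was at least 19.3-fold higher. Sox8, from 282 and 3 reads, was 85.5-fold higher than in Lgr5-negative cells (29.0 to 417). These intervals leave out the spread between sorts. They are descriptions, because both genes were tested through the EpCAM-high libraries. Over all antrum groups, Sox11 reached 34.6 normalised counts and Sox8 4.18. The antrum Lgr5 effect was below the EpCAM-high effect by limma for both, Sox11 at −5.49 (SE 1.10, adjusted p = 0.0156) and Sox8 at −5.35 (SE 1.14, adjusted p = 0.0200). Sox8 was tested there only through the EpCAM-high libraries, and its p is a description, whereas Sox11 also reached the minimum in 3 antrum libraries. The tests were not alike. By edgeR the Sox8 p was 0.567, in a range of 0.000577 to 0.567, and Sox8 also missed without antrum Lgr5-negative sort 2 (0.0571) or corpus Lgr5-negative sort 1 (0.0552) or 2 (0.0643). By edgeR the Sox11 p was 0.0301, and 0.0693 with the block, in a range of 0.000482 to 0.0693.

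**Figure D4:**
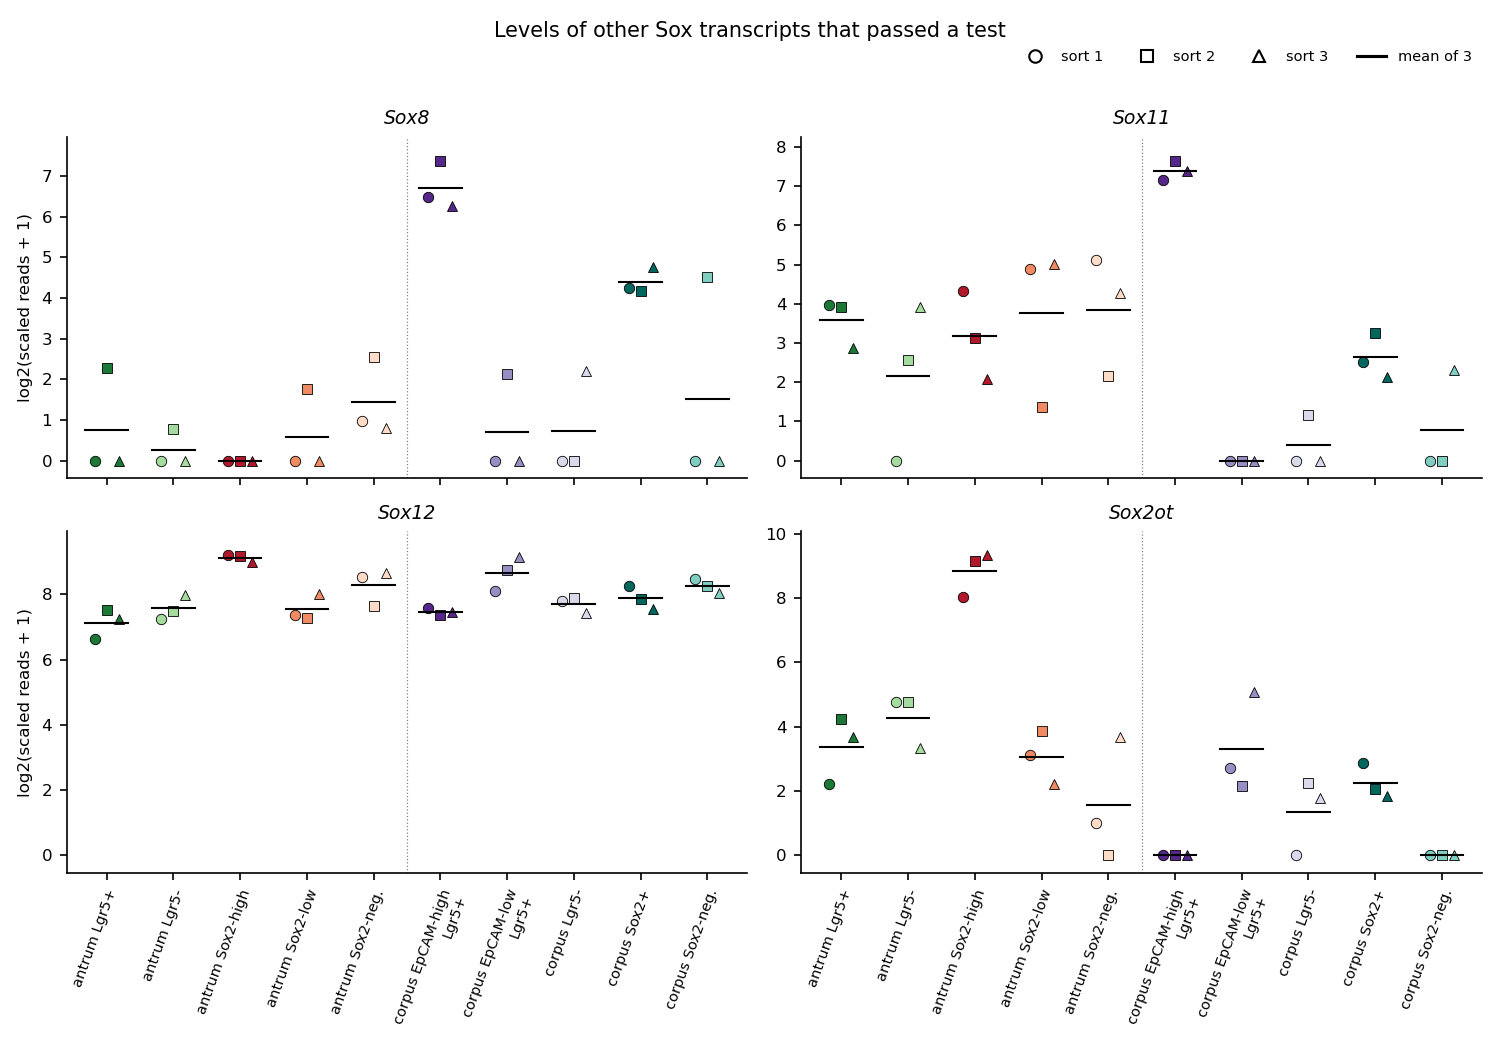
Sox8, Sox11, Sox12 and Sox2ot in the 10 sorted groups, as log2(jointly scaled reads + 1), a symbol per library by sort number and a bar at the mean of the log2 values. Sox8 and Sox11 stand out in EpCAM-high cells and Sox2ot in Sox2-high cells.

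Sox12, another SoxC gene, had 642, 557 and 479.6 normalised counts in Sox2-high cells, against 165, 133 and 215 in Sox2-low cells. The groups were far apart (1.72, SE 0.37, limma adjusted p = 0.0260), but the p rose above 0.05 without Sox2-low sort 1 (0.0784), 2 (0.106) or 3 (0.0576) or Sox2-high sort 2 (0.0990) or 3 (0.0677), in a range of 0.00473 to 0.106. In the corpus, Sox12 had 292, 441 and 599.6 in EpCAM-low cells, against 205, 221 and 162 in Lgr5-negative cells (1.13, SE 0.31, adjusted p = 0.0220), and that call was lost without Lgr5-negative sort 1 (0.0596), 2 (0.0537) or 3 (0.0881) or EpCAM-low sort 3 (0.0648), in a range of 0.00800 to 0.0881. Against EpCAM-low cells it was lower in EpCAM-high cells, at 186, 159 and 174 (−1.30, SE 0.31, adjusted p = 0.0114). On RPM values without TMM factors both directions of Sox12 turned, to −0.85 and 0.71, where the median gene was at −2.04 and 1.94.

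Sox2ot, whose gene encloses Sox2, had 286, 558 and 615 normalised counts in Sox2-high cells, against 7.72, 11.5 and 2.98 in Sox2-low and 0.988, 0 and 10.5 in Sox2-negative cells. It was higher in Sox2-high cells than in both (5.93, SE 0.91, limma adjusted p = 0.00693, and 7.35, adjusted p = 0.00445). It reached the count minimum in the 3 Sox2-high libraries and 2 others, so it was tested because of that group. Both p-values are therefore descriptions. Outside the Sox2-high group it reached at most 34.4 normalised counts, in an EpCAM-low library, and it was at 0 reads in all EpCAM-high and corpus Sox2-negative libraries. So Sox2ot was at 0 in EpCAM-high cells although Sox2 was at 511 to 955 there.

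The genes most like each Sox gene over the 30 libraries were found among 15801 genes on log2(scaled reads + 1), as a description without a test. For Sox9 they were Tcf7l2, a nuclear effector of Wnt signalling (r = 0.862), Runx1 (0.853) and Rell1 (0.852), with r within groups of 0.657, 0.633 and 0.635. Sox21 had the closest neighbours of the 6, Ippk (0.945), Rcc1l (0.933) and Kat2a (0.929), and these held within groups (0.947, 0.897 and 0.917). For Sox2 the highest were Sike1 (0.740) and Pla2g4e (0.740), then Slc25a35 (0.739). Sox4 was most like Asb1 (0.889), Patz1 (0.851) and Frmd5 (0.850). Sox5 was most like Garnl3 (0.853), Hs3st3a1 (0.832) and 5031425E22Rik (0.817), and r fell within groups to 0.353, 0.203 and 0.492. Sox6 was most like Col23a1 (0.768), Epp13 (0.760) and Gm44066 (0.748), with 0.181, 0.316 and 0.192 within groups. The libraries share tables, depth classes and sort days, so these r values are not independent of them.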

How the data were processed

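RNA-seq libraries of sorted mouse stomach cells were made with a SMARTer low-input kit, per the labels' protocols. The deposited antrum and corpus tables hold a signal per gene, which is the read count divided by a size factor of each library; STAR, HTSeq, DESeq2, edgeR and mm9 are named in the submitters' processing notes, without versions. The authors' deposited comparison tables give a log2 fold change and an adjusted p-value per gene. Whole reads were recovered for at least 99.9949% of values above 0 (tolerance 0.01 read). Reads without a gene name, 0.029 to 0.482% per library, and those with a date as name, 0.0132 to 0.106%, were left out.

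limma 3.58.1 (trend, robust) in R 4.3.3 was run on log2(normalised count + 1) over genes with at least 10 in at least 3 libraries, with all groups of a line and tissue sharing the spread, and Benjamini-Hochberg adjustment over all genes at 0.05. Differences between tissues, and levels across tables, used recovered reads scaled with TMM factors to a mean library of 30725261. Alternatives were the sort day as a block, a pseudocount of 10, no filter, RPM with TMM factors (0.05 added), edgeR 4.0.16 quasi-likelihood on recovered reads, and leaving out each library. edgeR with the block, and RPM without TMM factors, were added after the data were seen. Fits were tested on simulated data. Python 3.11.15 with pandas 2.3.3 made the tables.

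Sort numbers pair libraries because the deposited sort sheet lists the same number as the labels for 30 of 30 libraries, collected together. Same-day deviations correlated above 0.1 in 17 of 24 pairs (−0.0659 to 0.6733). The correlations were 0.1114 to 0.6733 in the antrum, 0.2211 to 0.366 in the corpus Sox2 sorts and −0.0659 to 0.1922 in the corpus Lgr5 sorts. The main test leaves this pairing out. Replicate libraries were distinct, with a chi-square per degree of freedom of at least 34.2 over 30 pairs. The 6 genes and the gene lists were chosen with earlier results of these data known. Named genes are the 6 in every comparison, other Sox genes that passed, the 3 genes most like each, and at most 4 genes of a list per comparison that passed, from the largest changes. Intervals and floors cover counting error only.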

Additional observations from a re-analysis of the deposited data

Results flagged for a closer look

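The log2 fold change of Sox9 over Lgr5-negative cells differed between antrum Lgr5-positive and corpus EpCAM-low cells by 2.72 (limma adjusted p = 0.0043). This is a test of the difference itself, but the corpus group was gated on low EpCAM as well as Lgr5. Against corpus EpCAM-high Lgr5-positive cells, the Sox9 difference was 0.32 (limma adjusted p = 0.831). Sox8 and Sox11 differed between the antrum and the EpCAM-high effect by −5.35 (adjusted p = 0.0200) and −5.49 (adjusted p = 0.0156). Sox8 reached the count minimum only through the EpCAM-high libraries, so it was tested because of them and its p is a description. Both rest on groups at or near 0 reads, so their sizes depend on the count added before the logarithm. By edgeR, Sox8 did not pass (0.567, in a range of 0.000577 to 0.567) and Sox11 did (0.0301, in a range of 0.000482 to 0.0693).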

How the results depend on the processing

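Of 1427 gene values under alternatives, 1314 kept their direction and side of the threshold, 50 lost and 24 gained a call, and 39 turned, 3 of them from a called result. The number of the 6 genes called was 1 with the replicate block, by limma and by edgeR, for antrum Lgr5 (0 without), 4 by both for Sox2-high against Sox2-low (1 without), 1 by both for Sox2-high against Sox2-negative (0 without) and 2 by both for corpus Sox2 (1 without). For the antrum minus EpCAM-low Lgr5 effect it was 2 with the limma block and 2 with a pseudocount of 10 (1 otherwise), and for Sox2-high against Sox2-negative 1 with a pseudocount of 10. On RPM values without TMM factors it was 2 for EpCAM-high (4 otherwise), beside 18.1% of genes, and 5 for EpCAM-low against Lgr5-negative cells (2 otherwise), beside 82.2%. Leaving out libraries gave 0 to 1 for Sox2-high against Sox2-low and against Sox2-negative, 1 to 4 for EpCAM-high and 1 to 3 for EpCAM-low against Lgr5-negative, 0 to 1 for antrum minus EpCAM-high and 1 to 2 for antrum minus EpCAM-low. The block changed no other count of Sox genes called by limma. With the limma block, the counts given for the Sox2 sorts include Sox2, whose reporter set the gate.

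Directions turned on RPM values without TMM factors for Sox2 in antrum Lgr5 (−0.14) and EpCAM-low cells (−1.59), Sox12 in EpCAM-low against Lgr5-negative (−0.85) and EpCAM-high against EpCAM-low cells (0.71), and Sox21 there (0.98); median genes stood at −0.47, −2.04 and 1.94. For Sox2-high against Sox2-negative, Sox21 (0.03) was at −0.0015 on RPM with TMM factors, −0.12 by edgeR, −0.01 by edgeR with the block, −0.0548 without TMM factors and −0.46 to 0.46 leaving out libraries, and Sox4 (0.05) at −0.0363 without TMM factors and −0.21 to 0.20. Sox9 in Sox2-low against Sox2-negative cells (−0.02) was at 0.0039 on RPM with TMM factors, 0.0574 without them and −0.0934 to 0.0604 leaving out libraries. Leaving out libraries gave Sox4 −0.24 to 0.14 and Sox21 −0.0590 to 0.23 for corpus Sox2; Sox5 −0.71 to 0.46 (0.0306 by edgeR) and Sox6 −0.37 to 1.39 for antrum minus EpCAM-high; Sox2 −0.28 to 0.0495, Sox21 −0.41 to 0.48 and Sox4 −0.12 to 0.38 for antrum minus EpCAM-low. Sox6 for the Sox2 effect was at −1.43 by edgeR, −1.30 with its block and −0.39 to 1.59 leaving out libraries. The causes were not tested.

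Genes called in all were 446 with the block and 0 without for antrum Lgr5, where no filter gave 12, 4581 and 1190 for Sox2-high against Sox2-low, 1463 and 324 against Sox2-negative, 2305 and 1365 for corpus Sox2, 1471 and 629 for antrum minus EpCAM-high, 1585 and 624 for antrum minus EpCAM-low, and 101 and 6 for the Sox2 effect. With edgeR and the block they were 440, 4301, 1148, 2202, 1310, 1222 and 85. Without TMM factors, 12208 genes were called for EpCAM-low against Lgr5-negative (4590 otherwise) and 11451 for EpCAM-high against EpCAM-low (4714 otherwise). A pseudocount of 10 gave 1061 for antrum minus EpCAM-high and 14 for the Sox2 effect, as did no filter there, and edgeR gave 210 for Sox2-high against Sox2-negative and 4 for the Sox2 effect. Leaving out libraries gave 239 to 1409 for Sox2-high against Sox2-low, 87 to 225 against Sox2-negative, 690 to 1238 for corpus Sox2, 1372 to 2721 for EpCAM-high, 2614 to 4902 for EpCAM-low and 2985 to 4735 between them, 195 to 718 and 187 to 972 for the Lgr5 effects against EpCAM-high and EpCAM-low, 1 to 8 for the Sox2 effect and 0 to 4 for antrum Lgr5. Sox6 had 0 to 51 reads per library, and a level under 3 reads was not detectable.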

Other observations

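In the authors' deposited table of Sox2-high against Sox2-low cells, Sox2 was at 2.15 with an adjusted p of 0.2, Sox5 at 1.73 with 0.178 and Sox2ot at 6.03 with 4.37e-05. The signs of the authors' deposited table of antrum Lgr5 ran Lgr5-negative over Lgr5-positive, with Sox9 at −1.52 (adjusted p 0.708). The authors' deposited table for EpCAM correlated with EpCAM-low over corpus Lgr5-negative cells (r = 0.958 across 10639 genes, which are not independent replicates) more than with EpCAM-low over EpCAM-high cells (r = 0.585), and it was not used here.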
